A study of Mus musculus with 4 samples.

Results

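The genes described here are 37 fibrosis and extracellular matrix genes measured in mouse liver on 4 arrays, out of 30439 genes and transcripts on the array. They were chosen by symbol, as array probes that carry the name of a collagen, a matrix protease or its inhibitor, a cross-linking enzyme, a matrix protein or a gene of activated stellate cells. The rule uses no expression value, but the list was drawn up with earlier results of these data known. The 37 genes have 49 probes on 94 spots of each array, and 10 genes have several probes.

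Fibrosis is the build-up of scar matrix in a chronically injured organ. In the liver most of that matrix is made by hepatic stellate cells, pericyte-like cells beside the sinusoids that store vitamin A at rest and turn into contractile, collagen-secreting myofibroblasts when activated, with TGF-beta and PDGF among the best known activating signals. The amount of matrix depends on collagen synthesis, on lysyl oxidases that cross-link the fibrils, on metalloproteases that cut matrix proteins, and on the tissue inhibitors that hold those proteases back.

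All livers came from male C57BL/6J mice on a high-fat diet (HFD) for 24 weeks. Control mice (Cont) were Drp1flox/flox littermates, and Drp1LiKO mice carried the same floxed alleles together with 1 Cre transgene under the albumin promoter, which acts in hepatocytes, so the floxed gene was targeted in hepatocytes and not in stellate cells. Drp1, encoded by Dnm1l, is a dynamin-related GTPase that divides mitochondria. There was 1 array for each of 4 groups: Cont, Drp1LiKO, Cont after a 17 h fast and 4 h of refeeding, and Drp1LiKO after the same fast and refeeding. The 17 h come from the labels, and the methods of the study give a slightly shorter fast. The labels of the first 2 groups name no feeding state. They are read as fasted from the methods of the study, while the series description mentions refed mice only and the labels tie the raw data of these 2 arrays to earlier submissions. The word "fasted" rests on that reading throughout.

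All 4 arrays lay on 1 slide and were read in 1 scan. The 75th percentile of the signal was 461 and 722 on the fasted Cont and Drp1LiKO arrays and 357 and 526 on the refed ones, and the share of gene spots well above background ran from 48.7% to 58.2%, higher on the Drp1LiKO array of each pair. No spot was saturated. The array's Dnm1l probe (chr16:16312331-16312390, mm9) differed by -0.21 on the log2 scale (Drp1LiKO minus Cont, measurement SE 0.20) in the fasted and by -0.12 (SE 0.20) in the refed pair. Whether this probe lies within the deleted part is not known, so it does not check the labels.

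Signals are given as multiples of the 75th percentile of their own array, so a value of 1 is a signal at that percentile. A difference is the log2 signal of one array minus that of another for the same probe, and its SE, computed from the error that the scanner software reports for each spot, covers measurement only. For a probe on several spots it uses the mean error of a single spot, not reduced for the averaging of the spots. With 1 array in each group, the spread between animals is unknown and no difference within a feeding state has a test. A gene is called higher or lower at a difference of at least 2-fold where the brighter signal was well above background.

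Promoter sequence from RefSeq (GRCm38.p6), the 250 bases before the annotated start, was matched by symbol for 24 of the 37 genes. Shown first are Col1a2 (chr6:4505368-4505617, plus strand) and Col3a1 (chr1:45311288-45311537, plus strand), which encode chains of the main fibrillar collagens and were both higher in the fasted Drp1LiKO liver. Timp1 (chrX:20869916-20870165, plus strand), a metalloprotease inhibitor, and Col5a3 (chr9:20815068-20815317, minus strand), a minor fibrillar collagen chain, were lower in the refed Drp1LiKO liver. Each sequence runs 5′ to 3′ on the gene's strand, and capitals mark the motifs that are counted next, on either strand.
Col1a2: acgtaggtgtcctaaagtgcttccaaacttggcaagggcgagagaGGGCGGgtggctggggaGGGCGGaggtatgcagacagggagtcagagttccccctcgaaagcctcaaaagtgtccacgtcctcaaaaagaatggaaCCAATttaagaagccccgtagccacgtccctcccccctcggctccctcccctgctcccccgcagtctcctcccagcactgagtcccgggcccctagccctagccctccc
Col3a1: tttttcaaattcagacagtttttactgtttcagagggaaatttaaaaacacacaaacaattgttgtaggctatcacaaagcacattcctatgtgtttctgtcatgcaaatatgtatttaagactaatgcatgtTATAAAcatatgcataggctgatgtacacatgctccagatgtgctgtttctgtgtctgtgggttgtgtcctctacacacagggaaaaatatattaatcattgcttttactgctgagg
Timp1: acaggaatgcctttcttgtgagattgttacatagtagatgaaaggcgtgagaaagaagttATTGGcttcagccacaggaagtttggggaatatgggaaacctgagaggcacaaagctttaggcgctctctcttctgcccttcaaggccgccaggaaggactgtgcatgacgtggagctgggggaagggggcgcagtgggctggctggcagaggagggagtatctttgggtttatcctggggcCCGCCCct
Col5a3: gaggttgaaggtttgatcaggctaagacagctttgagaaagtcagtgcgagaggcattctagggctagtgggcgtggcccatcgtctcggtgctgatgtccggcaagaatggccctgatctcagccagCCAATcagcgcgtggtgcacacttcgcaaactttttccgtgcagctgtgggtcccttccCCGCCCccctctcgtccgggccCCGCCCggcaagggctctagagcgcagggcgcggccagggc

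The letters of the CCAAT box were found in 9 of the 24 windows (37.5%), against 33.8% of the 32851 windows of the same length in the whole table. TATAAA was in 3 windows (12.5% against 12.4%), among them Col3a1 and Vim, and TGANTCA, the letters of an AP-1 site, was in 2 (8.33% against 6.75%), those of Col6a1 and Mmp13. GGGCGG, the core of a GC box, was in 14 of 24 (58.3%, against 32.7%), Col1a2, Timp1 and Col5a3 included. Each of the 24 genes was counted by the first of its windows, while the 32851 windows include every window of a gene. Mmp12, Col6a2 and Col18a1 have a further window that was not counted, and that of Mmp12 holds TGANTCA. All were searched on both strands, no search string holds another, and a match is a description of the letters only. Col4a1 and Col4a2 stand head to head, with annotated transcript starts that overlap by 22 bases, so each gene's window lies within the other's transcript and neither is shown.

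Of the 37 genes, 25 were well above background on all 4 arrays, 7 on 1 to 3 arrays and 5 on none. The 5 without a signal well above background were Col5a2, Col8a1, Col15a1, Mmp9 (the gelatinase of neutrophils and macrophages) and Eln (elastin), and no difference is given for them. The 7 measured in part were Col6a2, Mmp2, Mmp12, Mmp13, Lox, Fbn1 and Des.

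**Figure D1:**
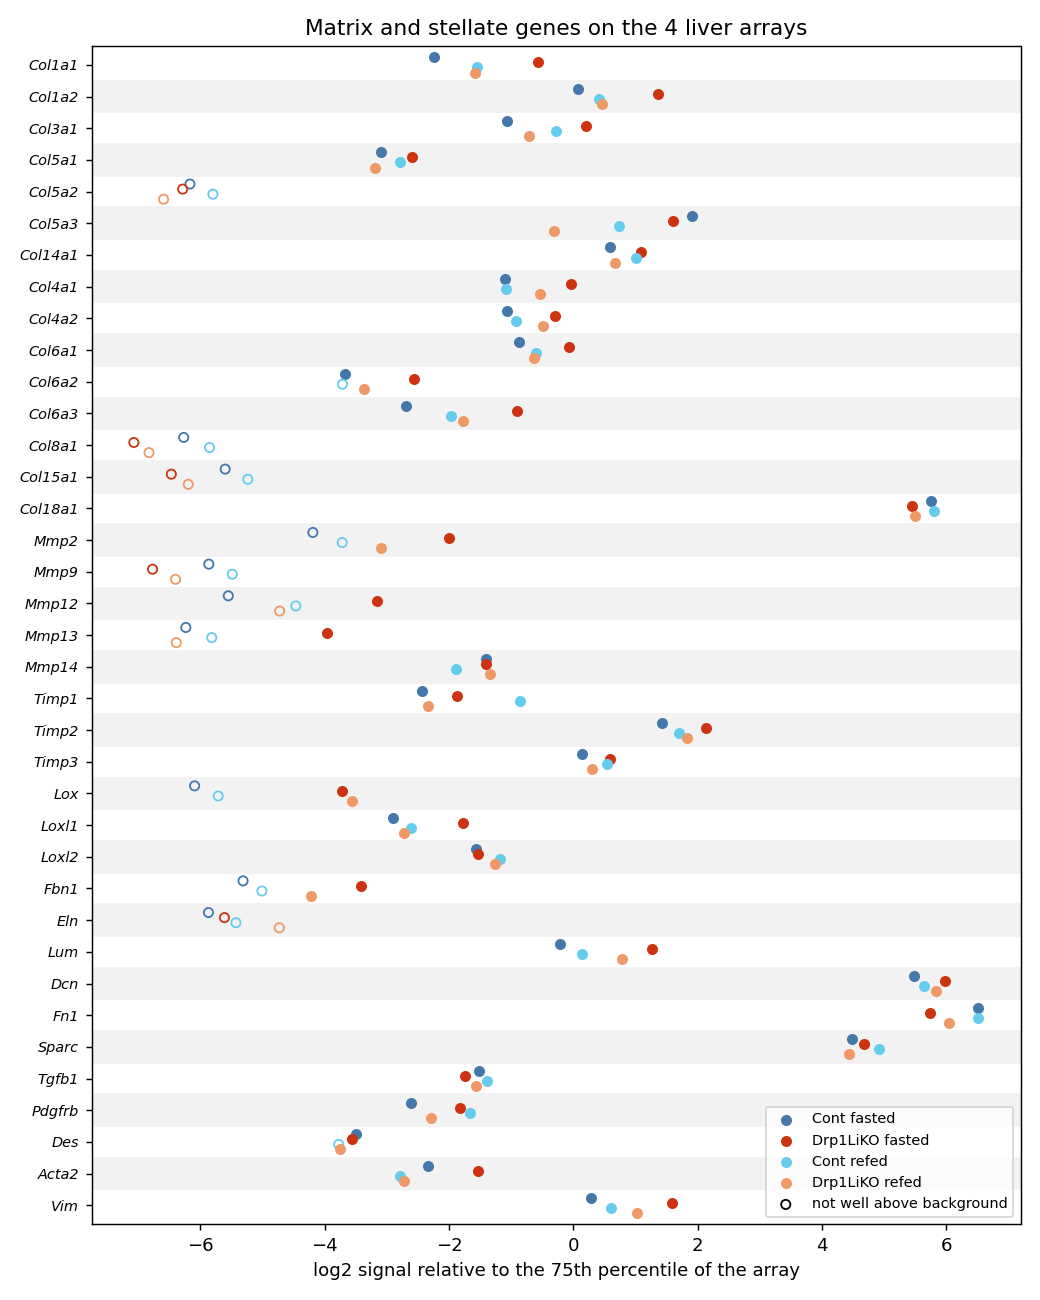
Log2 signal relative to the 75th percentile of the array (x axis) for the gene's chosen probe of each of the 37 genes (rows), with 1 point for each of the 4 arrays and open points where the signal was not well above background. Col1a1, Col1a2, Col6a3, Lum and Vim have their highest point on the fasted Drp1LiKO array, and Timp1 has its highest on the refed Cont array. Positions of different genes on the axis are not comparable, since each probe has its own response.

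In the fasted pair, 14 of the 37 genes were at least 2-fold higher in the Drp1LiKO liver and 0 were at least 2-fold lower. Of all genes with a signal above background on an array of this pair, 8.06% were called higher and 5.19% lower. The 14 were Col1a1, Col1a2, Col3a1, Col4a1, Col6a2, Col6a3, Mmp2, Mmp12, Mmp13, Lox, Loxl1, Fbn1, Lum and Vim. Of the 25 genes measured on all 4 arrays, 8 were called higher and 0 lower, against 2.75% and 3.31% of the 14447 genes measured in that way, and the median of the 25 differences was 0.71 against -0.12 over those 14447 genes. With normexp background correction, which adds an offset before the logarithm and shrinks the differences of dim probes, 6 of the 37 were called (Col1a1, Col1a2, Col3a1, Col6a3, Lum and Vim) and the median was 0.41.

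In the refed pair, 1 gene, Lox, was called higher (8.05% of all genes measured in the pair) and 2, Col5a3 and Timp1, were called lower (6.33% of all genes). Of the 25 genes measured on all 4 arrays, 0 were higher and 2 lower, against 3.12% and 3.99% of the 14447. The median of the 25 genes was -0.09, against -0.08 over the 14447 genes, and the difference was positive for 10 genes in the refed and for 20 in the fasted pair. Taken with its sign, the genotype difference was higher in the fasted than in the refed pair for 22 of the 25 genes. The count includes Col5a3 (-0.30 and -1.04) and Timp1 (0.56 and -1.48), whose refed difference was larger in size. Of the 14447 genes, 45.5% had the same order, and under each of 4 other scalings 21 or 22 of the 25 genes had it. No test of this contrast between the pairs exists, since it takes 1 array from each of the 4 groups.

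**Figure D2:**
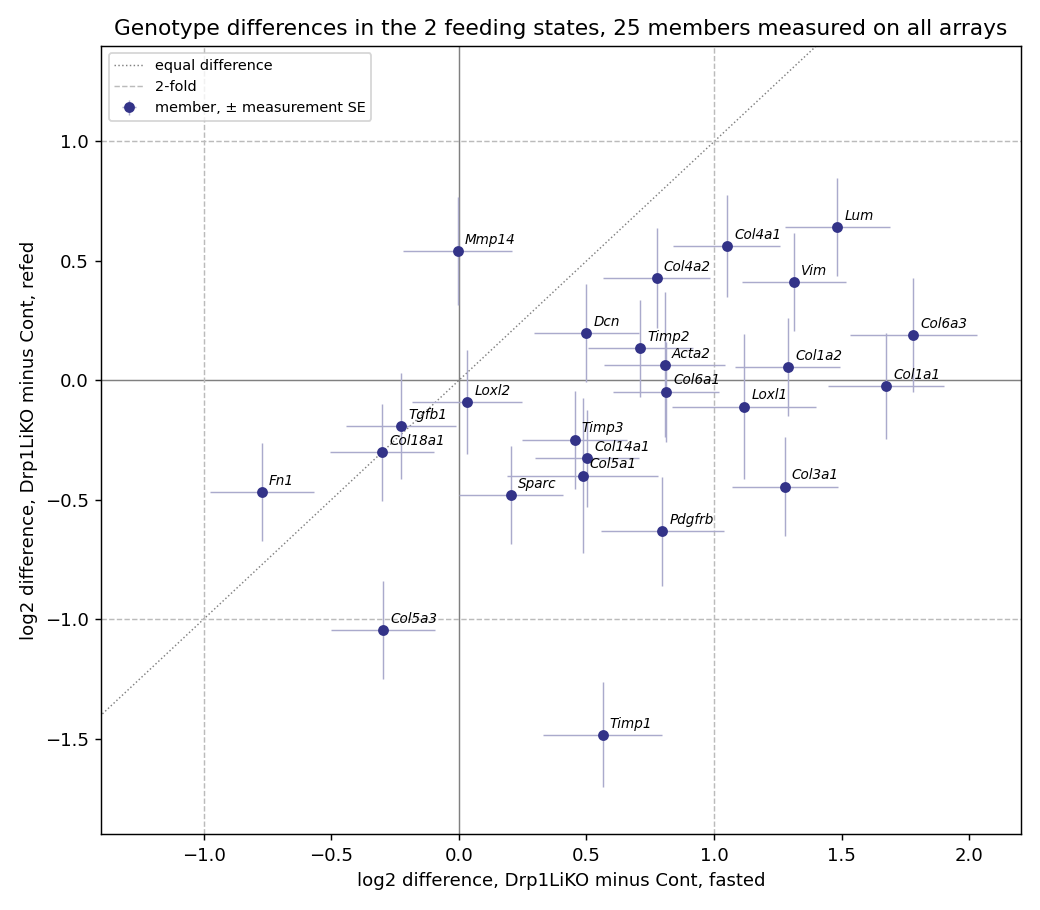
Log2 difference between Drp1LiKO and Cont in the fasted pair (x axis) and the refed pair (y axis) for the 25 genes measured on all 4 arrays, with bars for the measurement SE, dashed lines at 2-fold and a dotted line of equal difference. 22 genes lie below the dotted line, and the 8 genes past 1 on the x axis lie between -0.44 and 0.64 on the y axis.

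Among the fibrillar and fibril-associated collagens, 3 of 7 genes were called higher in the fasted Drp1LiKO liver, and the median of the 6 measured on all arrays was 0.89 in the fasted and -0.36 in the refed pair. Col1a1, the larger chain of collagen I (probe chr11:94813115-94813174, mm9), had signals of 0.212 in the fasted Cont, 0.677 in the fasted Drp1LiKO, 0.341 in the refed Cont and 0.335 in the refed Drp1LiKO liver. The fasted Drp1LiKO array stood above the other three, and the refed arrays were alike. Its difference was 1.67 (SE 0.23), 3.19-fold, in the fasted pair and -0.02 (SE 0.22) in the refed pair, where the sign turned under another scaling.

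Col1a2, the other chain of collagen I (chr6:4490619-4490678), read 1.05, 2.57, 1.33 and 1.38 in the same order of arrays. The difference was 1.29 (SE 0.21) in the fasted pair, 2.44-fold, and 0.06 (SE 0.21) in the refed pair. Again only the fasted Drp1LiKO array was apart from the rest. Col3a1, the chain of collagen III that forms the fine reticular fibers of the liver (chr1:45405589-45405648), read 0.475, 1.15, 0.828 and 0.609. It was 2.42-fold higher in the fasted Drp1LiKO liver (1.28, SE 0.21) and lower in the refed one (-0.44, SE 0.21), so the order of the genotypes was opposite in the 2 feeding states.

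Col5a3, a chain of collagen V, which sits inside collagen I fibrils, took another course (chr9:20574592-20574651). Its signal was 3.74 in the fasted Cont, 3.04 in the fasted Drp1LiKO, 1.66 in the refed Cont and 0.803 in the refed Drp1LiKO liver. Both refed arrays were below both fasted arrays, and the Drp1LiKO array was the lower of each pair. The genotype difference was -0.30 (SE 0.20) in the fasted and -1.04 (SE 0.21) in the refed pair, 2.06-fold, and the refed value fell short of 2-fold under each of the 4 other scalings.

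Col5a1, the chain that nucleates fibrils, differed by 0.48 (SE 0.29) in the fasted and -0.40 (SE 0.32) in the refed pair. Col14a1, a collagen that binds to the fibril surface, differed by 0.50 (SE 0.20) and -0.33 (SE 0.20) with the probe used, and by 0.75 (SE 0.25) and 0.16 (SE 0.29) with its other probe. Both genes were below 2-fold in either pair, and the probes of Col14a1 disagreed in sign in the refed pair.

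Among the other collagens, 3 of 8 were called higher in the fasted Drp1LiKO liver and 0 in the refed one, with medians of 0.81 and 0.19 over the 5 measured on all arrays, the refed one with a sign that turned with normexp. Col6a3, a chain of the beaded filaments that surround cells (chr1:92663663-92663722), read 0.155 in the fasted Cont, 0.533 in the fasted Drp1LiKO, 0.256 in the refed Cont and 0.292 in the refed Drp1LiKO liver. At 1.78 (SE 0.25), 3.44-fold, it had the largest fasted difference of the 25 genes, against 0.19 (SE 0.24) in the refed pair, where the sign turned with normexp. Its partners Col6a1 and Col6a2 differed in the fasted pair by 0.81 (SE 0.21) and 1.11 (SE 0.32). Col6a1 differed by -0.05 (SE 0.21) in the refed pair, with a sign that turned under another scaling, and Col6a2 was not well above background in the refed Cont liver, where the refed Drp1LiKO signal was at least 1.14-fold higher. The other Col6a2 probe was well above background on no array.

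Each "at least" value sets the brighter signal against a floor for the dim array, which is the lowest signal there that still counted as well above background, or the dim signal itself if that was higher. Col4a1 and Col4a2, the main chains of the sheet-forming collagen IV of basement membranes, were the collagens that were higher by more than 2 SE in both pairs. Col4a1, read from 10 spots (chr8:11199009-11199068), had signals of 0.47, 0.972, 0.47 and 0.694. It was 2.07-fold higher in the fasted Drp1LiKO liver (1.05, SE 0.21) and 1.48-fold higher in the refed one (0.56, SE 0.21), with the same level in both Cont livers. The fasted value was 0.99 with median scaling and 0.86 with normexp. Col4a2 read 0.479, 0.819, 0.53 and 0.713, with differences of 0.77 (SE 0.21) and 0.43 (SE 0.21), so the genes of this head-to-head pair had the same order of genotypes in both feeding states. Col18a1, which hepatocytes express and whose end is cleaved to endostatin, was slightly lower in both pairs, by -0.30 (SE 0.20) in each, and its other probe gave -0.41 and -0.51 (SE 0.20 in each). The fasted sign of Col18a1 turned under another scaling.

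The metalloproteases were mostly dim. Mmp2, the gelatinase A that stellate cells secrete (chr8:95376840-95376899), was well above background in the Drp1LiKO livers only, with signals of 0.0549 in the fasted Cont, 0.251 in the fasted Drp1LiKO, 0.0762 in the refed Cont and 0.117 in the refed Drp1LiKO liver. The Drp1LiKO signal was at least 3.91-fold higher in the fasted pair and at least 1.36-fold higher in the refed pair. Mmp12, the macrophage elastase, was well above background on the fasted Drp1LiKO array alone, with 0.0214, 0.113, 0.0454 and 0.0379, which is at least 1.75-fold higher in the fasted pair. The other Mmp12 probe was well above background on no array.

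Mmp13, the interstitial collagenase of the mouse, was likewise above background on the fasted Drp1LiKO array alone, with 0.0133, 0.0639, 0.0178 and 0.012. It passed the 2-fold call on its measured signals, but the lowest signal well above background on the Cont array was higher than its Drp1LiKO signal, so no fold is given. Mmp14, the membrane-bound protease that activates the Mmp2 protein, was measured on all arrays and differed by -0.01 (SE 0.21) in the fasted and 0.54 (SE 0.23) in the refed pair, where its Cont signal was 0.271 and its Drp1LiKO signal 0.394.

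The tissue inhibitors of metalloproteases were all measured on all arrays, and none was called in the fasted pair. Timp1, an inhibitor made by activated stellate cells and other injured tissues (chrX:20451802-20451861), read 0.186 in the fasted Cont, 0.274 in the fasted Drp1LiKO, 0.551 in the refed Cont and 0.197 in the refed Drp1LiKO liver. The refed Cont array was above the other three. Its difference was 0.56 (SE 0.23), 1.48-fold, in the fasted pair and -1.48 (SE 0.22), 2.8-fold lower, in the refed pair, the lowest refed value of the 25 genes. Timp2 differed by 0.71 (SE 0.20) and 0.13 (SE 0.20), and by 0.57 and 0.35 (SE 0.21 in each) with its other probe. Timp3, the inhibitor that binds to matrix, differed by 0.45 (SE 0.20) and -0.25 (SE 0.21).

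Of the cross-linking enzymes, Lox and Loxl1 were called higher in the fasted Drp1LiKO liver. Lox, the lysyl oxidase that starts collagen cross-links, was the member called in both pairs, well above background in the Drp1LiKO livers only, with signals of 0.0147 in the fasted Cont, 0.0763 in the fasted Drp1LiKO, 0.0191 in the refed Cont and 0.0848 in the refed Drp1LiKO liver. As measured, both Drp1LiKO signals lay above both Cont signals, which were not well above background. The floor of the refed Cont array, -3.55 on the log2 scale, was higher than the fasted (-3.71) and refed (-3.56) Drp1LiKO signals. The order against the refed Cont liver is therefore not settled. With normexp the differences were 0.23 in the fasted and 0.30 in the refed pair. The bound was at least 1.19-fold higher in the fasted pair, no fold can be given in the refed pair, and no array had a signal well above background for the other Lox probe.

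Loxl1, which cross-links elastin, read 0.134, 0.292, 0.163 and 0.151. It was 2.17-fold higher in the fasted Drp1LiKO liver (1.12, SE 0.28) and -0.11 (SE 0.31) in the refed pair, and its dimmer probe was at least 1.51-fold higher in the fasted pair. Loxl2, which acts on collagen IV as well, differed by 0.03 (SE 0.22) and -0.09 (SE 0.22) with the probe used (chr14:70090017-70090076), with a fasted sign that turned under another scaling, and by 0.47 (SE 0.25) and -0.28 (SE 0.31) with a second. Its remaining probe (chr14:70092141-70092200) was well above background in the Drp1LiKO livers only and read 0.0289, 0.0527, 0.0613 and 0.268, at least 3.14-fold higher in the refed pair. The probes of Loxl2 thus disagreed in the refed Drp1LiKO liver, and this gene was singled out after its values were seen.

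Among the elastic fiber genes, proteoglycans and glycoproteins, Lum and Fbn1 were called higher in the fasted pair and none in the refed pair. Lum, lumican, a small leucine-rich proteoglycan that spaces collagen fibrils (chr10:97035210-97035269), read 0.863 in the fasted Cont, 2.41 in the fasted Drp1LiKO, 1.1 in the refed Cont and 1.72 in the refed Drp1LiKO liver. Both Drp1LiKO signals lay above both Cont signals, with differences of 1.48 (SE 0.21), 2.79-fold, and 0.64 (SE 0.21), 1.56-fold. Fbn1, fibrillin of the microfibrils, was well above background in the Drp1LiKO livers only, with 0.0252, 0.0941, 0.0311 and 0.0539, at least 1.46-fold higher in the fasted pair and with no fold to give in the refed pair.

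Fn1, fibronectin, which hepatocytes make for the plasma, was the gene with the lowest fasted difference of the 25. Its signals were 91.2, 53.4, 91.1 and 65.9, and it differed by -0.77 (SE 0.20) in the fasted and -0.47 (SE 0.20) in the refed pair, with the Cont signals alike. Dcn, decorin, a proteoglycan that binds TGF-beta, differed by 0.50 (SE 0.20) and 0.20 (SE 0.20). Sparc, a collagen-binding secreted protein, differed by 0.20 (SE 0.20) and -0.48 (SE 0.20) with the brighter probe used and by 0.82 (SE 0.21) and 0.45 (SE 0.21) with its other probe, so its refed direction is not settled. With quantile normalization the fasted differences were -0.45 for Fn1, 0.88 for Dcn and 0.47 for Sparc, moves larger than the SE.

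Of the stellate cell genes and signals, Vim was called. Vim, vimentin, the intermediate filament of mesenchymal cells (chr2:13504232-13504291), read 1.21 in the fasted Cont, 3.02 in the fasted Drp1LiKO, 1.53 in the refed Cont and 2.04 in the refed Drp1LiKO liver, with differences of 1.31 (SE 0.20), 2.48-fold, and 0.41 (SE 0.20). Vim is also expressed by macrophages and endothelial cells. Acta2, the smooth muscle actin of myofibroblasts and vessel walls, was read from 10 spots at 0.197, 0.345, 0.145 and 0.151. It was higher in the fasted Drp1LiKO liver by 0.81 (SE 0.24) and differed by 0.06 (SE 0.30) in the refed pair, with a sign that turned with normexp.

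Pdgfrb, the PDGF receptor of stellate cells and pericytes, read 0.163 in the fasted Cont, 0.283 in the fasted Drp1LiKO, 0.316 in the refed Cont and 0.204 in the refed Drp1LiKO liver. The order of the genotypes was opposite in the 2 feeding states, with 0.80 (SE 0.24) and -0.63 (SE 0.23). Tgfb1, the profibrotic cytokine itself, differed by -0.23 (SE 0.22) and -0.19 (SE 0.22), and Des, desmin of stellate and muscle cells, by -0.08 (SE 0.35) in the fasted pair, and no fold can be given in the refed pair, where the Cont signal was not well above background.

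The same 4 signals also give the difference that went with refeeding within each genotype. In Cont livers 1 gene was called higher after refeeding, Timp1 (4.47% of all genes), and 1 lower, Col5a3 (5.83% of all genes), and both were among the 25 genes measured on all arrays (1.6% and 2.37% of the 14447). The median of the 25 was 0.30 against 0.11 over the 14447 genes. In Drp1LiKO livers 0 genes were called higher (5.61% of all genes) and 6 lower (7.15% of all genes): Col1a1, Col5a3, Mmp2, Mmp12, Mmp13 and Acta2. Of the 25 genes, 0 were higher and 3 lower, against 2.85% and 3.02% of the 14447. The median of the 25 was -0.48 against 0.12 over all genes, and 1 of the 37 was called lower with normexp. Of the 25 genes, 21 had a positive difference in Cont livers and 5 in Drp1LiKO livers. These differences use the same arrays as the genotype differences above, so a signal that is high on the fasted Drp1LiKO array enters both, and they are no further evidence of it.

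Col5a3 was the gene called lower after refeeding in both genotypes, by -1.17 (SE 0.20), 2.26-fold, in Cont and by -1.92 (SE 0.20), 3.79-fold, in Drp1LiKO livers. Timp1 was 2.97-fold higher in the refed than in the fasted Cont liver (1.57, SE 0.23) and lower in the refed than in the fasted Drp1LiKO liver (-0.48, SE 0.22). Col1a1 differed with refeeding by 0.68 (SE 0.24) in Cont and -1.01 (SE 0.21) in Drp1LiKO livers. Col3a1 and Col6a3 had the same opposite signs, with 0.80 (SE 0.21) and -0.92 (SE 0.21) for Col3a1 and 0.72 (SE 0.27) and -0.87 (SE 0.21) for Col6a3. Acta2 was lower after refeeding in both, by -0.45 (SE 0.31) in Cont and by -1.19 (SE 0.23), 2.28-fold, in Drp1LiKO livers.

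Among the dim proteases, Mmp2 differed by -1.11 (SE 0.24) with refeeding in Drp1LiKO livers, Mmp12 was at least 2.63-fold lower and Mmp13 at least 1.49-fold lower in the refed Drp1LiKO liver. In the Cont livers all 3 were too close to background to be compared. Lox had signals of 0.0763 and 0.0848 in the fasted and refed Drp1LiKO livers, a difference of 0.15 (SE 0.30).

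**Figure D3:**
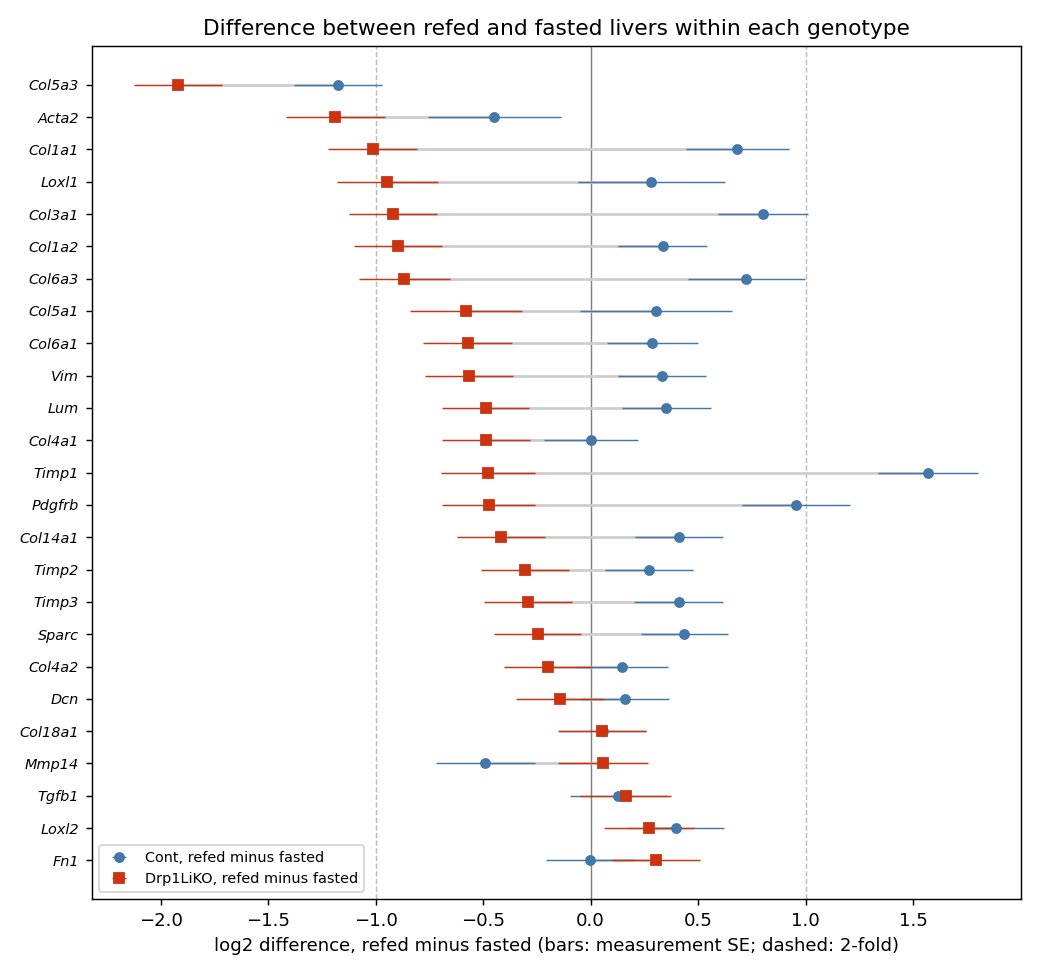
Log2 difference between the refed and the fasted liver (x axis) of Cont (blue circles) and Drp1LiKO (red squares) mice for the 25 genes measured on all 4 arrays, with bars for the measurement SE and dashed lines at 2-fold. Circles lie right of 0 for 21 genes and squares left of 0 for 20, and Col5a3 has both marks past the left dashed line.

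The test across genes was limma with an effect of genotype added to an effect of refeeding, which needs all 4 arrays, has 1 residual degree of freedom and counts any difference between the feeding states in the genotype effect as error. Of the 30 members tested, 0 passed an adjusted p under 0.05 for genotype or for refeeding, as did 0 of the 16744 genes (0.0%), of which 4746 and 4414 had an unadjusted p under 0.05. Of the 30, Lox, Mmp2 and Fbn1 entered the fit through the Drp1LiKO arrays alone, and no p is given for them. In the fit on the 14447 genes measured on all 4 arrays, 0 of the 25 members passed the adjusted p for genotype or refeeding, against 8.4% and 0.104% of all genes. At an unadjusted p under 0.05 in that fit, 6 of the 25 members passed for genotype, 24% against 33.5% of all genes, and 2 passed for refeeding, 8% against 33.5%. In the fit on 16744 genes, the genotype effect was 0.81 for Col4a1 (adjusted p = 0.124), 1.06 for Lum (adjusted p = 0.130) and -0.62 for Fn1 (adjusted p = 0.133), genes with the same sign in both pairs. For Col1a1 it was 0.82 (adjusted p = 0.330). The refeeding effect was -1.55 for Col5a3 (adjusted p = 0.169) and -0.82 for Acta2 (adjusted p = 0.175). In the 6 settings run, 0 members passed for either effect. Of all 16744 genes, 474 passed for genotype with an intensity trend and 1 in the model without the other factor. None of the 16744 passed for genotype with quantile normalization or the authors' values, or for refeeding in any setting on these genes. The adjusted p of Col5a3 for refeeding ran from 0.0688 to 0.485.

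The matrix was also described over 149 other matrix genes in 6 lists, of which 145 were on the array and 76 were measured on all 4 arrays. Of those with a signal well above background on an array of the fasted pair, 24 (22.4%) were called higher and 4 (3.74%) lower in the Drp1LiKO liver, against 8.06% and 5.19% of all genes. In the refed pair 9 (8.82%) were higher and 3 (2.94%) lower, against 8.05% and 6.33%, so the share called higher there was near that of all genes. Of the 76 measured throughout, 8 were higher and 2 lower in the fasted pair (2.75% and 3.31% of all genes) and 2 and 1 in the refed pair (3.12% and 3.99%), with medians of 0.23 and -0.11. Proteoglycans and matrix glycoproteins had 9 of 27 called higher in the fasted and 1 of 26 in the refed pair, with medians of 0.33 and -0.07 over 19 genes. TGF-beta and PDGF signaling genes had medians of 0.58 and 0.23 over 18 genes. Of the 21 with a signal well above background on an array of the pair, 4 were higher and 1 lower in the fasted pair. In the refed pair 3 of 21 were higher and 1 lower. Among the 18, 2 were higher and 1 lower in the fasted pair, and 2 higher and 0 lower in the refed pair. No gene of these 6 lists measured on all 4 arrays was called the same way in both pairs.

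Chosen after their values were seen, Ccn2, a matricellular target of TGF-beta, read 0.641, 1.67, 0.364 and 0.401 (1.38, SE 0.21 fasted and 0.14, SE 0.22 refed), and Pdgfra, the other PDGF receptor, read 0.108, 0.330, 0.148 and 0.196 (1.62, SE 0.29 and 0.40, SE 0.30). Each was highest on the fasted Drp1LiKO array, like Col1a1. The remaining lists were other collagens, with a median of -0.50 in the fasted and -0.62 in the refed pair over 4 genes, basement membrane and laminins (0.06 and -0.16, 11 genes), other metalloproteases and inhibitors (-0.17 and -0.12, 9 genes) and collagen processing and cross-linking (-0.22 and -0.18, 15 genes). The fasted medians of the laminins and of the processing genes changed sign under other scalings.

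Markers of liver cell types were read on the same arrays. In bulk tissue, more cells of a type and more RNA per cell cannot be told apart. Stellate cell markers had a median of 0.29 in the fasted and -0.16 in the refed pair over 12 of 14 genes, with 1 called higher in the fasted (Ednrb, an endothelin receptor, 1.31, SE 0.30, named after its values were seen) and 0 called in the refed pair, and their summed level was 25.5 and 29.9 in the fasted and 34.3 and 30.5 in the refed Cont and Drp1LiKO livers. Of the 12, 9 had a positive difference in the fasted and 4 in the refed pair, and Gfap and Bmp10 were well above background on none of the 4 arrays. The part of stellate cell number in the matrix values was not tested.

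Kupffer cell and macrophage markers had a median of 0.43 in the fasted and 0.76 in the refed pair over 14 of 17 genes on the array. Of the 17, 9 were called higher in the fasted, 8 in the refed and 0 lower in either pair. Of all genes, 8.06% and 8.05% were called higher and 5.19% and 6.33% lower in these pairs. Among the 14, 6 were called higher in each pair, against 2.75% and 3.12% of the 14447 genes measured on all 4 arrays. Of the 14, 10 had a positive and 4 a negative difference in the fasted pair, down to -0.88. In the refed pair 13 were positive and 1 negative, at -0.66. Their summed level was 105 and 121 in the fasted and 113 and 195 in the refed Cont and Drp1LiKO livers. Trem2, a receptor of lipid-associated macrophages, read 0.369, 1.99, 0.755 and 2.36 (2.43 and 1.64, SE 0.21 in each). Marco read 5.33, 16.7, 13.5 and 41.2, Lyz2 read 0.992, 2.58, 1.08 and 3.13, and Cx3cr1 read 0.0956, 0.337, 0.180 and 0.375. These 4 were at least 2-fold higher in both pairs, and the part of macrophages in the matrix values was not tested.

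Portal fibroblast and smooth muscle markers had medians of 0.49 and 0.32 over 4 of 12 genes, with summed levels of 3.42 and 4.71 in the fasted and 3.88 and 5.33 in the refed Cont and Drp1LiKO livers, and Gli1, Clec3b and Myh11 had no signal well above background. Mesothelial markers had medians of 0.57 and 0.55 over 2 of 6 genes, with summed levels of 35.2, 47.3, 42.3 and 84.5. Of these 2 genes, Krt8 differed by 1.01 in the refed pair and the other by 0.10, so the values do not describe a cell type. Cholangiocyte markers had medians of 1.35 and 0.68 over 3 of 8 genes, with summed levels of 2.98, 7.46, 2.205 and 1.01. Krt23, 1 of the 3, was called higher in the fasted and lower in the refed pair (-2.19), where the median was positive and the sum lower. Cftr, not measured on all arrays, was called lower in the fasted pair. Endothelial markers had medians of 0.17 and -0.32 over 11 of 12 genes, with summed levels of 62.0, 54.2, 65.3 and 44.9. The part of these cell types in the matrix values was not tested.

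Neutrophil markers had medians of -0.87 and 0.38 over 6 of 9 genes (summed levels 6.44, 3.89, 7.24 and 11.03). Adipocyte markers had medians of -1.03 and -1.39 over 3 of 7 genes (summed levels 12.5, 5.43, 28.2 and 5.01), with differences of -5.07 and -6.27 for Cfd, complement factor D, and of -1.03 and -1.39 for Plin4, while Adipoq, Plin1, Lep and Retn had no signal well above background. Hepatocyte markers had medians of -0.42 and -0.41 over 8 of 8 genes on the array, with a fasted sign that turned under another scaling, and summed levels of 3048, 2075, 3695 and 2592.

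**Figure D4:**
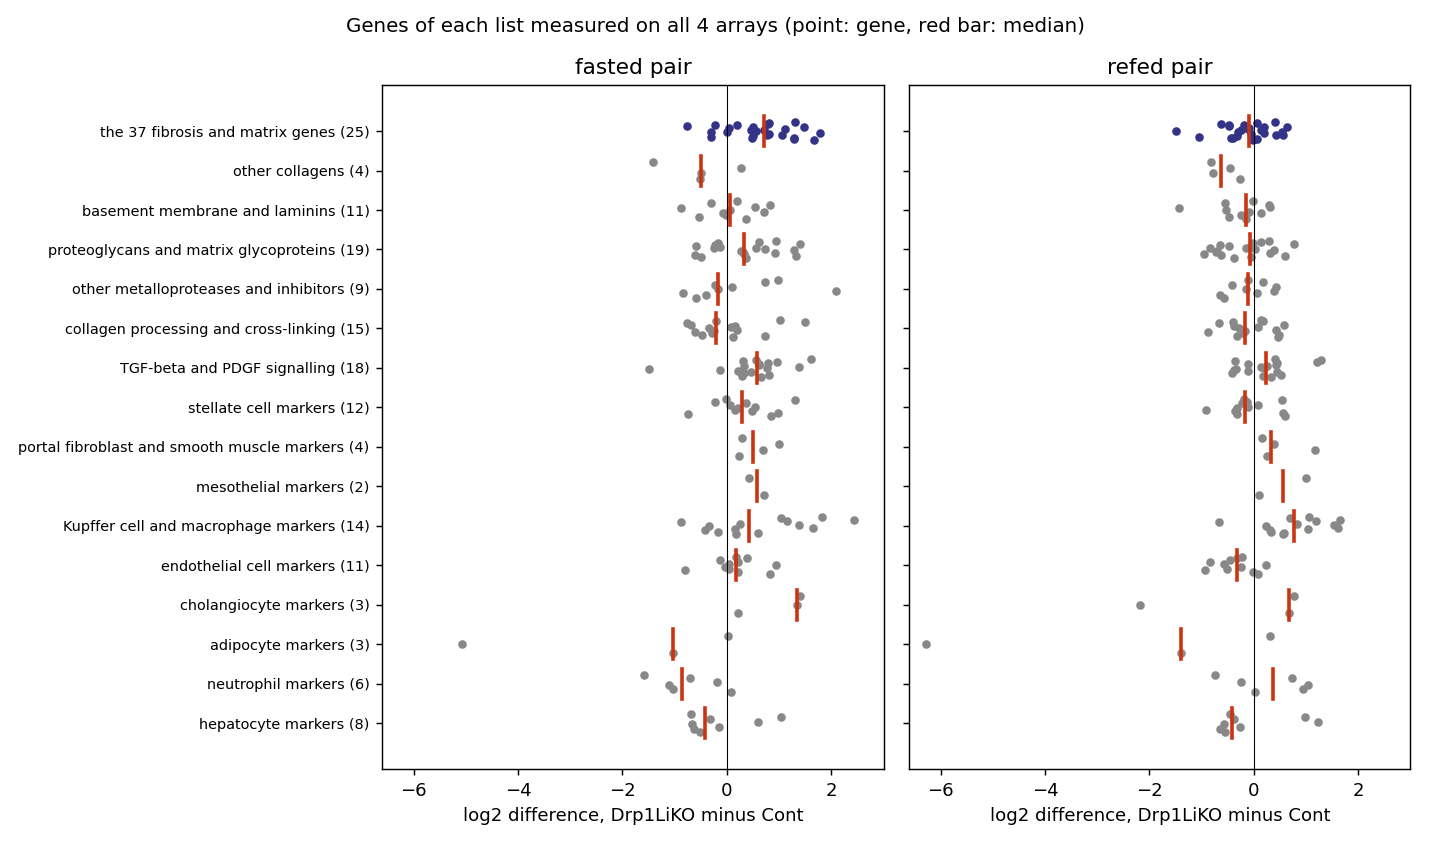
Log2 difference between Drp1LiKO and Cont (x axis) in the fasted pair (left) and the refed pair (right) for the 37 fibrosis and matrix genes and 15 other gene lists (rows, with the number of genes measured on all 4 arrays), with 1 point for each gene and a red bar at the median. The matrix genes have a median of 0.71 on the left and -0.09 on the right, and the macrophage markers 0.43 and 0.76.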

How the data were processed

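Liver RNA of 4 groups of mice was hybridized to 4 one-color Agilent Whole Mouse Genome arrays, 1 for each group. The methods of the study name another Agilent mouse array design. Analysis started from the processed intensity of each spot in the scanner files that the authors deposited, background-subtracted within each array and not normalized between arrays. The labels name Agilent Feature Extraction 9.5.1.1, and the file headers carry 10.7.1.1. The authors also deposited a table of linear intensity values after quantile normalization, used as an alternative: 99.5% of its values lie within 0.01 on the log2 scale of a quantile normalization of the scanner signals.

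Each log2 signal had the 75th percentile of its array subtracted. Spots flagged as outliers were left out, which removed 37 of 39429 probes and none of the 49 member probes, and repeated spots were averaged. Names were updated through RefSeq accessions (26755 of 28389 matched), and probe positions are mm9. For genes with several probes, the probe detected on most arrays was taken, with ties settled by mean signal. A call required 2-fold with the brighter signal well above background. limma was run on the 16744 genes detected in that sense on 2 or more arrays, with Benjamini-Hochberg adjustment, and its script was tested on simulated data. Whether the mice of a group were pooled is not given in the sources used here. The number of arrays limits the precision.

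The members, the other gene lists and the tests were chosen with earlier results of these data known. Given in full are members called the same way in both pairs, members whose probes disagree and members called with refeeding; other members are given by role, and from the other lists genes called the same way in both pairs and measured on all arrays, up to 4 per list. A stellate cell marker gene is not reported here and was left out of its list. Alternatives were median scaling, quantile normalization, normexp with an offset of 50, the authors' values, the median over probes, 2 treatments of dim probes, a 1.5-fold threshold and, for limma, an intensity trend and a model without the other factor. Work was done in R 4.3.3 (limma 3.58.1) and Python 3.11.15 (matplotlib 3.10.9, numpy 2.4.6, pandas 2.3.3).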

Additional observations from a re-analysis of the deposited data

Results flagged for a closer look

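In 3 genes the genotypes differed in opposite directions in the fasted and refed pairs, each difference being more than 2 measurement SE from 0 (higher in the fasted and lower in the refed Drp1LiKO liver). The refed minus the fasted difference was -2.05 (SE 0.32) for Timp1, -1.72 (SE 0.29) for Col3a1 and -1.43 (SE 0.33) for Pdgfrb on the log2 scale. The rule was not met under every scaling, taking the SE of the main values. The refed difference of Col3a1 fell under 2 SE with median scaling (-0.39) and with normexp (-0.40). With normexp the fasted differences of Timp1 (0.22) and Pdgfrb (0.36) fell under it too. How many of all genes meet this rule was not counted. The SE covers measurement only, each pair has 1 array for each genotype, and the difference between the feeding states was not tested.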

How the results depend on the processing

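Of the counts and medians of the members, 81 values under an alternative stayed near the main value, 11 were lower, 5 higher and 1 moved. The medians of the members kept their sign, and a count has no direction to turn. Medians of single role groups and other lists that changed sign are given above. The 14 genes higher in the fasted Drp1LiKO liver became 6 with normexp and 8 among genes measured on all 4 arrays, the median of 0.71 became 0.41 with normexp, and the 0 lower became 1 at 1.5-fold. In the refed pair the 2 lower became 1 with median scaling, quantile normalization, normexp and the authors' values, and the 1 higher became 0 with normexp, among genes measured on all 4 arrays and with the dim side at its bound, and 4 at 1.5-fold. After refeeding, the 1 higher in Cont livers became 2 with the authors' values and 5 at 1.5-fold, and the 6 lower in Drp1LiKO livers became 1 with normexp, 3 among genes measured on all 4 arrays and 12 at 1.5-fold. The cause was not tested, except that the filter and the thresholds change the number of genes by construction. The authors' values moved the median of all genes in the fasted pair by 0.11, and the other scalings by less. Single bright members moved further, among them Fn1, Dcn and Sparc. No array could be left out, since each group has 1. No paired analysis was possible because each group has 1 array, so the groups share fewer than 2 replicate numbers. Probes near background limit 12 of the 37 genes.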
